A study of Mus musculus with 4 samples.

Results

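The locus described here is the 300 kb around Spsb1 on mouse chromosome 4, from 149.7 to 150.0 Mb of GRCm38, as mapped by PRO-seq in liver and yolk sac. The interval was chosen from the peak lists themselves, because a 100 kb window in it had the widest excess of yolk sac over liver peaks. The tissue difference in peak numbers is therefore given as a description, with no test. Any peaks of the 4 libraries sharing 1 bp or more were joined, which gave 43 regions in the interval of 61095 regions in all. A peak or region was placed by its midpoint.

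PRO-seq (precision nuclear run-on sequencing) marks RNA polymerases engaged in transcription, and dREG is a classifier that finds, from run-on reads, the places where transcription starts, at promoters and at distal elements such as enhancers. The series has 2 liver and 2 yolk sac libraries from E14.5 embryos, each from tissue pooled from 6 embryos. All 4 share the same cross. The mothers were C57BL/6J, the fathers were of mixed C57BL/6J and CAST/EiJ background, and only fathers with CAST/EiJ alleles at the imprinted Dlk1/Gtl2 locus of chromosome 12 were used. The sample labels give the strain as mixed C57BL/6h and CAST/EiJ. Whole tissue was used, so fewer cells of a type and less transcription per cell cannot be told apart. The labels do not say whether the 2 pools of a tissue came from separate litters.

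Spsb1 encodes an adaptor protein with a SPRY domain, which binds substrates, and a SOCS box, which recruits an E3 ubiquitin ligase built on cullin 5 with elongins B and C and the RING protein Rnf7. Known substrates of this adaptor family include the inducible nitric oxide synthase (Nos2) and the apoptosis regulator Pawr, and SPSB1 is known as a brake on TGF-beta signalling that acts on the type II receptor. The yolk sac joins an absorptive visceral endoderm to a mesoderm layer with vessels, whereas the fetal liver at this stage is largely an erythropoietic organ.

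Spsb1 (ENSMUSG00000039911.13) lies on the minus strand from 149896283 to 149955043. Its 5′-most annotated start site is at 149955043. In all 4 libraries a peak covered this start site, so its immediate upstream sequence is shown, from RefSeq's promoter table for GRCm38.p6, on the minus strand at chr4:149955044-149955256. These 213 bases end next to the first annotated transcript base. Capitals mark the 3 matches to the GC box, GGGCGG on either strand, a motif picked after the sequence was seen.
Spsb1 promoter: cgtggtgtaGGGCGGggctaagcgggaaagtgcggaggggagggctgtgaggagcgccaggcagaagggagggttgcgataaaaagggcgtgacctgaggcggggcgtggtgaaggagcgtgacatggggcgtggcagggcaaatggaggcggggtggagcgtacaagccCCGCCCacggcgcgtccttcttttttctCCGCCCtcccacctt

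The GC box was present in 35.7% of 32851 RefSeq promoters of 300 bp (250 before and 50 after the start), and the Spsb1 promoter had 3 matches against a median of 0. Of its 300 bases 66.3% were G or C, against a median of 52.7%, and it held 28 CpG dinucleotides against a median of 7. On CpG number, 85.8% of promoters had fewer. The window had no match on either strand to the letters of the 8 motifs searched in addition. These were AP-1 (TGANTCA, in 7.81% of all promoters), the GATA-factor site (AGATAA or TGATAA, 18.6%), TEAD (GGAATG, 14.7%), HNF4 (CAAAGTC, 4.44%), FOXA (TGTTTAC, 3.65%), SOX (ACAATGG, 3.66%), ETS (CAGGAAG, 13.3%) and the E-box (CAGCTG, 16.3%). It also lacked TATAAA (13.6% of promoters) and CCAAT (37.4%). The sequence of the distal regions was not analysed here.

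The peak at the Spsb1 start site was present in both tissues. It spanned 149954501 to 149955952 in liver 1 and 149954251 to 149955752 in liver 2. In the yolk sac it spanned 149953251 to 149956502 in library 1 and 149953601 to 149956502 in library 2. Liver 1 and 2 had widths of 1452 and 1502 bp, yolk sac 1 and 2 of 3252 and 2902 bp, and the tissues did not overlap. The mean was 1477 ± 35.4 bp in liver and 3077 ± 247 bp in yolk sac (SD, n = 2). This 2.08-fold difference was larger than the spread within either tissue. The median fold over the 11875 start-site regions called in all 4 libraries was 1.06, and 9.01% of them had a larger fold than Spsb1. In width, the Spsb1 peak was above 92.8% and 92.1% of these regions in the yolk sac lists, and above 38.3% and 49.3% of them in the liver lists.

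**Figure D1:**
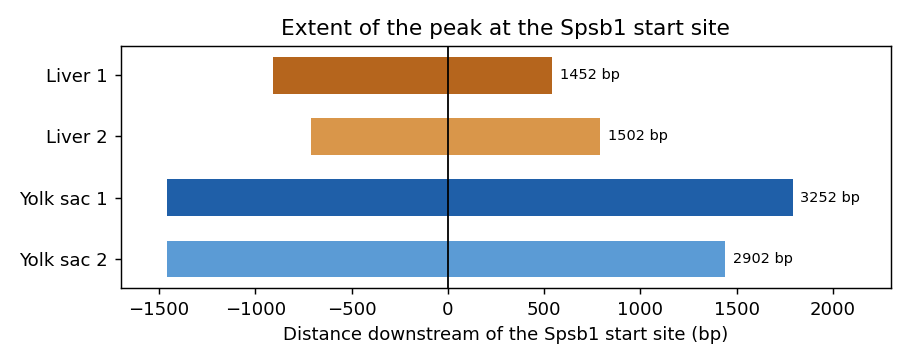
Extent of the dREG peak at the Spsb1 start site in each library, in bp downstream of the 5′-most annotated start (0, vertical line), with 1 bar per library and its width in bp. The 2 yolk sac peaks (3252 and 2902 bp) reach farther on both sides of the start than the 2 liver peaks (1452 and 1502 bp).

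The yolk sac peak reached farther both ways. Upstream of the start it extended 1459 bp in both yolk sac lists, against 909 and 709 bp in liver. Downstream it extended 1792 and 1442 bp, against 542 and 792 bp. The score of a peak, the authors' own value without a unit, is used here only as a percentile, the percent of peaks in the same list with a lower score. The Spsb1 start-site peak stood at percentiles 93.8 and 96.5 in liver 1 and 2, and at 60.5 and 83.0 in yolk sac 1 and 2. The lists differ in length, 24863 and 24333 peaks long for liver, 50525 and 43055 for yolk sac. These ranks therefore cannot show whether strength differed between the tissues. The read depth behind each list is unknown.

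A second start site of Spsb1, inside the gene, was called in 1 library. The region at 149922351 to 149922552 covers the first base of a shorter annotated transcript. Only yolk sac 1 had a peak there, 202 bp wide and at percentile 9.16. The other annotated internal start sites of Spsb1 had no region of their own within 500 bp, except those reached by the peak at the main start.

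Around the gene the tissues differed mainly in peaks away from start sites. Each liver list had 8 peaks in the interval, while yolk sac 1 had 38 and yolk sac 2 had 37, which gives means of 8 ± 0 and 37.5 ± 0.707 (SD, n = 2). The gap of 29.5 peaks was larger than the difference of 1 peak between the yolk sac lists. Peaks more than 500 bp from every annotated start site, called distal below, numbered 4 and 3 in liver against 31 and 31 in yolk sac. As a share of each list, the interval held 0.0322% and 0.0329% of liver peaks and 0.0752% and 0.0859% of yolk sac peaks, a 2.48-fold difference against 4.69-fold for the plain counts. With an equal number of the highest-scoring peaks per list (24333), the interval held 8 and 8 liver peaks and 19 and 20 yolk sac peaks. An exact permutation test of 2 libraries against 2 cannot go below p = 0.333 and was not used.

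**Figure D2:**
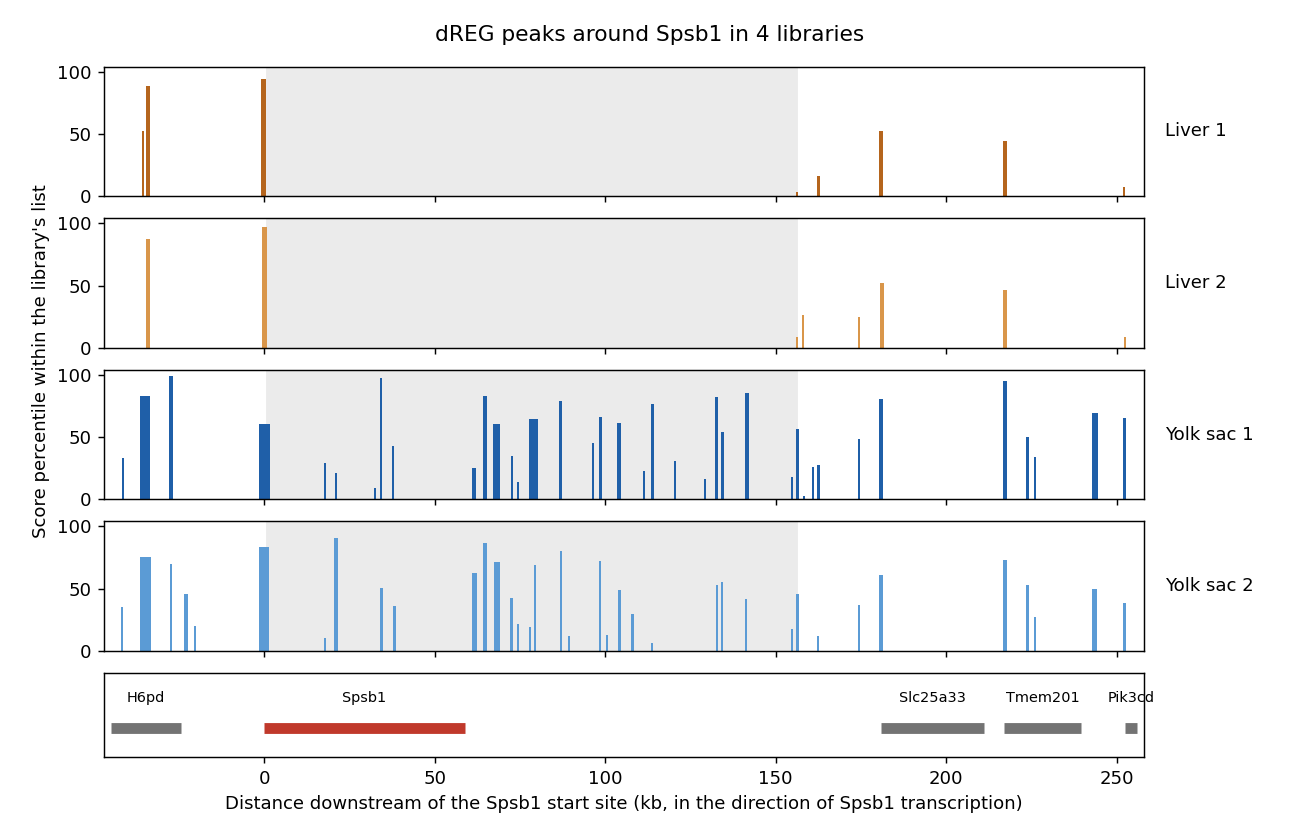
dREG peaks of the interval in each of the 4 libraries, by distance downstream of the Spsb1 start site in kb (x) and by score percentile within the library's own list (y); bars narrower than 0.6 kb are drawn 0.6 kb wide, grey marks the stretch with no liver peak, and the lower bars are protein-coding genes, with H6pd and Pik3cd cut at the edges of the plot. Between the start-site peak of Spsb1 and 156 kb downstream the liver lists are empty, and the yolk sac lists hold 23 and 22 peaks.

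Of the 43 regions, 23 had a peak in each yolk sac list but in no liver list, termed yolk-sac-only here. This was 53.5% of the interval's regions, beside 33% of all regions in the genome, and the interval was picked on this contrast. Another 6 regions were called in all 4 libraries (14.0%, beside 25.7% genome-wide). None was liver-only, a pattern held by 6.62% of all regions. Of the remaining 14 regions, 11 were called in 1 yolk sac library alone. These were 6 in library 1 (14.0%, beside 16.8% of all regions) and 5 in library 2 (11.6%, beside 5.06%). The other 3 were called in 1 liver library and at least 1 yolk sac library. No region of the interval was called in liver and missing from both yolk sac lists.

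The regions shared by all 4 libraries were largely the promoters of the neighbouring genes. They lay at the start sites of Pik3cd (149702401 to 149703202), which encodes a catalytic subunit of phosphoinositide 3-kinase, and of Tmem201 (149737151 to 149738452), a protein of the inner nuclear membrane. The others were the start sites of Slc25a33 (149773351 to 149774702), a mitochondrial carrier of pyrimidine nucleotides, and of Spsb1, an intron of H6pd (149988351 to 149991402), which encodes a dehydrogenase of the endoplasmic reticulum, and an intergenic region at 149798251 to 149799202. H6pd itself starts at 150009023, outside the interval, and Clstn1, the nearest coding gene to start before it, at 149586468. Pik3cd, Tmem201, Slc25a33, Spsb1 and H6pd had a promoter peak in all 4 libraries, the state of 53.8% of protein-coding genes. Clstn1, a calsyntenin, had one in liver 2 and in each yolk sac library, but not in liver 1.

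By position, the yolk-sac-only regions were densest beyond the 3′ end of Spsb1. The 122 kb between the Slc25a33 start and the Spsb1 3′ end (149774278 to 149896282) held 23 and 21 yolk sac peaks and 2 and 3 liver peaks, and 14 of its 26 regions were yolk-sac-only. The Spsb1 gene body held 6 and 4 yolk sac peaks and 0 and 1 liver peaks by midpoint, with 4 yolk-sac-only regions, all intronic. The midpoint of the start-site peak falls within the gene in liver 2 and yolk sac 1 and just upstream of it in the other 2 libraries. The 45.0 kb upstream of Spsb1 held 3 and 6 yolk sac peaks and 3 and 1 liver peaks. On the far side of the Slc25a33 start there were 6 and 6 yolk sac and 3 and 3 liver peaks over 74.3 kb. Yolk sac peaks thus stood at 1.80 per 10 kb in the downstream segment and at 0.851, 1.001 and 0.808 per 10 kb in the other 3.

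Of the 23 yolk-sac-only regions, 22 lay more than 500 bp from any start site (95.7%, Wilson 95% interval 79.0 to 99.2, counting error only). Across the genome 85.5% of 20163 such regions did. By gene structure 15 were intergenic, 4 intronic in Spsb1 and 3 overlapped an exon of Tmem201 or H6pd. The exception, at 149730701 to 149731552, lay at an internal start site of Tmem201. For 14 of the 23 the nearest coding start site was one of Spsb1, for 4 it was Slc25a33, for 2 each Tmem201 and H6pd, and for 1 Pik3cd. Internal start sites of Spsb1 were counted here, also where no peak was called. Nearness does not show which gene a region acts on, and the lists hold no value that links them.

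Both liver lists were empty from the intergenic region at 149798251 to 149799202 to the Spsb1 start-site peak. This stretch, from 149798953 to 149954250, is 155 kb long and held 23 and 22 yolk sac peaks, in 26 regions of which 18 were yolk-sac-only and 8 were called in 1 yolk sac library. Stretches between neighbouring liver peaks were drawn up for the whole genome in the same way. Among 28122 of them the Spsb1 stretch ranked 14 by number of yolk sac peaks, tied with 2 others. Among the 4058 of at least 100 kb it ranked 2 by density, at 14.49 yolk sac peaks per 100 kb against a median of 0.741. The interval was picked for its excess of yolk sac over liver peaks in these lists. Both ranks therefore restate that choice and are no further support. The densest was on chromosome 12 (79831903 to 79944850), with 18 and 17 peaks and no coding gene. The third was at Bcar3 on chromosome 3 (122317003 to 122419400), with 15 and 14.

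**Figure D3:**
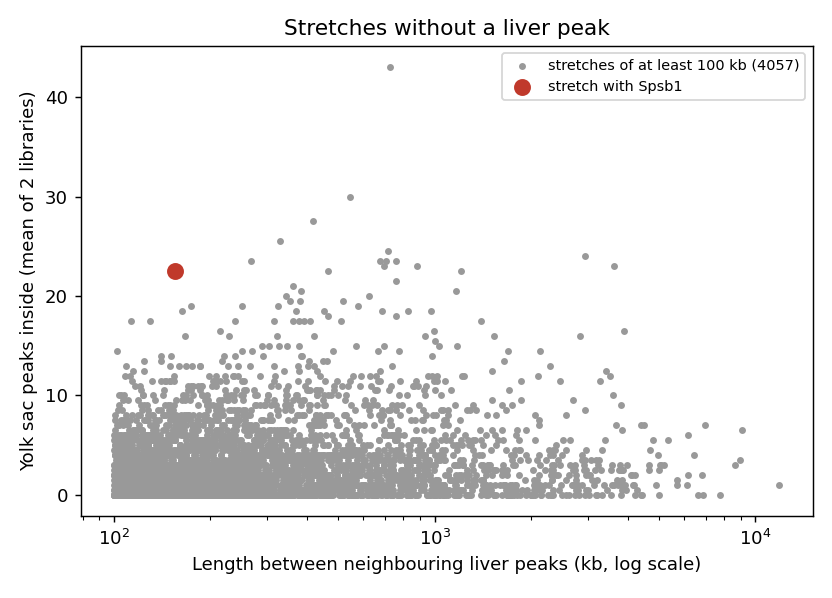
Number of yolk sac peaks (mean of 2 libraries, y) in each stretch of at least 100 kb between neighbouring liver peaks, by its length in kb (x, log scale); each grey point is 1 of the other stretches. The Spsb1 stretch (red) holds 22.5 peaks in 155 kb, and the stretches with more peaks are all longer. Its high position restates how the interval was picked.

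In windows of 100 kb the excess was concentrated in 1 of the 3 windows of the interval. The window from 149800001 to 149900000 had 0 and 0 liver and 18 and 18 yolk sac peaks, the widest gap of 13246 windows with a peak, ahead of 16.5 for the next. Of all windows, 20.2% had peaks in each yolk sac list but in no liver list, and the next largest number without a liver peak was a mean of 14. The neighbouring windows ranked 1323 (5 and 6 liver, 11 and 9 yolk sac peaks) and 370 (3 and 2 against 9 and 10). By the number of yolk sac peaks alone the leading window ranked 8, in a tie of 5. The place of the leading window depended on how windows were cut and ranked. It was 2 with windows of 50 kb, 3 with windows moved by 50 kb, 4 with windows of 200 kb and 10 by base pairs covered. In each run the leading window was picked anew as the one of the interval with the widest gap. With windows of 50 kb or moved by 50 kb it began at 149850001. The yolk sac excess in it follows from that choice and is no further support.

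**Figure D4:**
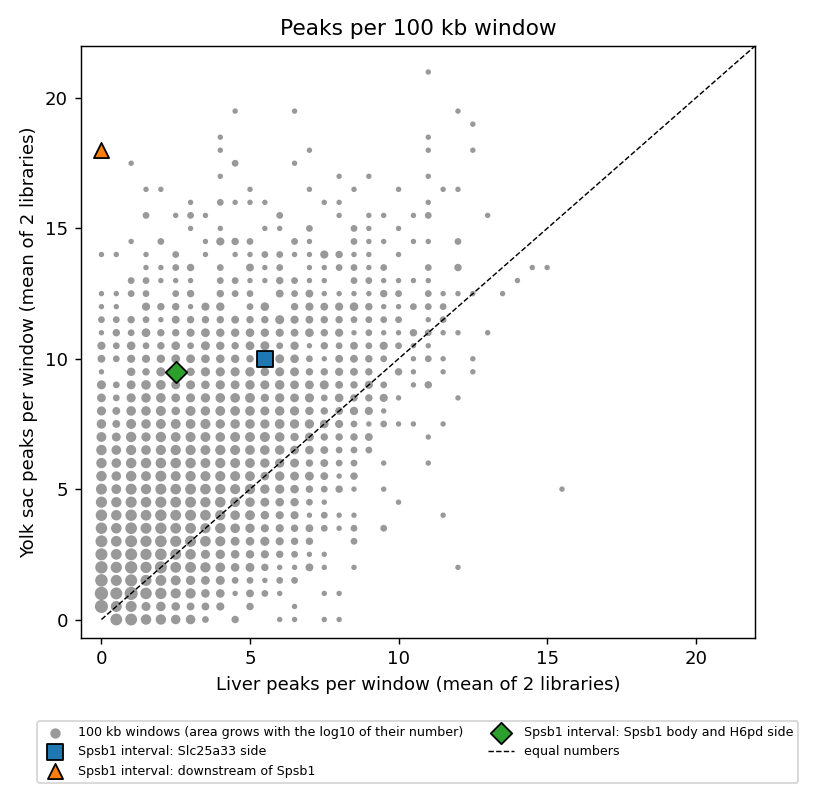
Liver peaks (x) against yolk sac peaks (y) per 100 kb window, each the mean of 2 libraries, where point area grows with the number of windows at that position and the dashed line marks equal numbers. The window downstream of Spsb1 (triangle) sits alone at 0 liver and 18 yolk sac peaks, and the other 2 windows of the interval lie among many others.

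In size the yolk-sac-only regions were near the genome-wide median. The yolk-sac-only regions were 402 to 2752 bp wide with a median of 952 bp, beside 852 bp for all yolk-sac-only regions. Their midpoints stood a median of 7.55 kb apart and at the closest 1.62 kb, where the median over all neighbouring yolk-sac-only regions of the genome was 27.1 kb. The interval was picked for its number of yolk sac peaks, so this closer spacing restates that choice. The widest, at 149874651 to 149877402, was 1 peak in yolk sac 1 and was called as 2 separate peaks in yolk sac 2.

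Calls in the interval were repeated between the yolk sac libraries about as often as elsewhere. Of the 43 regions, all of which had a yolk sac peak, 31 were called in both yolk sac libraries (72.1%, Wilson 95% interval 57.3 to 83.3), beside 72.5% genome-wide. Among the 34 without a liver peak, 23 were called in both (67.6%, Wilson 95% interval 50.8 to 80.9), beside 60.1% genome-wide. Both Wilson intervals treat neighbouring regions as independent and give counting error only, not the variation between libraries. The 11 regions found in 1 yolk sac library alone had low scores, at percentiles 9.16 to 45.6 with a median of 23.2, and a median width of 402 bp. For the 22 yolk-sac-only regions with 1 peak in each library, the shared part was a median of 69.1% of the joint length, beside 72.04% genome-wide. Their starts and ends differed by a median of 125 bp, beside 100 bp.

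Score ranks differed between the yolk sac libraries at some regions. Over these 22 regions the Spearman correlation of the percentiles in yolk sac 1 and 2 was 0.35, beside 0.66 over 19853 such regions of the genome. It is a description over regions of the same 2 libraries, not over independent samples. The percentiles of the 23 regions differed by a median of 7.91 points, and 5 differed by over 30. The region in the Spsb1 intron at 149933551 to 149934602 stood at percentile 21.1 in yolk sac 1 and 90.4 in yolk sac 2. The intergenic region at 149840751 to 149841502 stood at 76.3 and 6.41. Of the 23 regions, 11 ranked higher in library 1 and 12 in library 2.

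**Figure D5:**
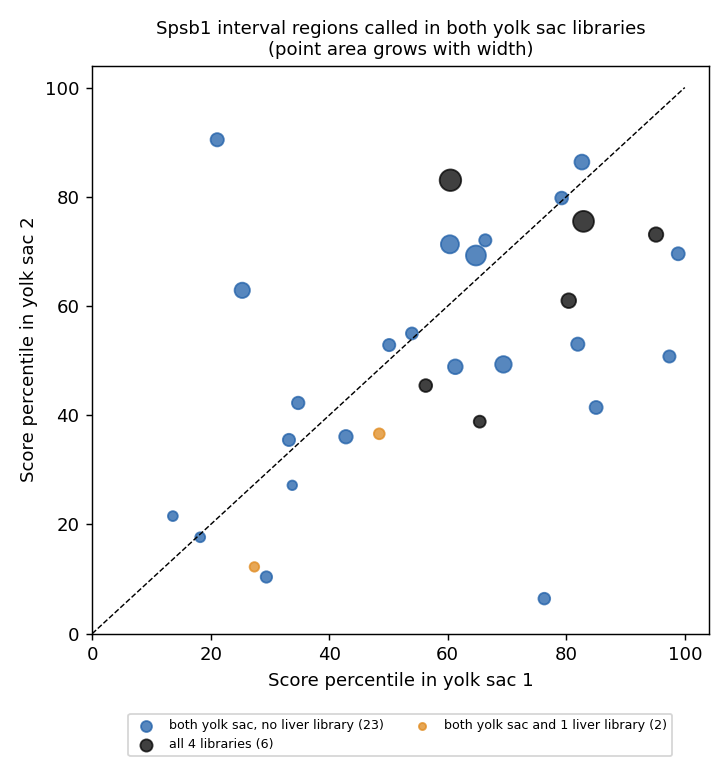
Score percentile in yolk sac 1 (x) and in yolk sac 2 (y) of the 31 regions of the interval called in both, coloured by the libraries that called them, with point area growing with region width and the dashed line marking equal percentiles. Points lie on both sides of the line, and the 2 intron and intergenic regions named in the text (21.1 and 90.4, 76.3 and 6.41) lie farthest from it.

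As a whole, the interval's yolk sac peaks lay near the middle of their lists. Their median percentile was 52.04 in library 1, where 10 of 38 peaks were at or above percentile 75 and 7 were under 25. It was 45.6 in library 2, where 5 of 37 were at or above 75 and 9 under 25. Ranked among distal peaks only, the medians of the interval's distal peaks were 58.5 and 60.8. The interval's 23 yolk-sac-only regions had median percentiles of 57.16 in library 1 and 50.03 in library 2. Over all 20163 yolk-sac-only regions of the genome these medians were 47.63 and 37.97. Regions of this class thus had higher medians in the interval in both libraries, a difference that was not tested. The deposited lists start at a score of about 0.80, and the lowest-ranked peak of the interval, at 149796751 to 149796852 in yolk sac 1, had a score of 0.811 and percentile 2.44.

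The regions with the highest rank in both yolk sac lists were spread over the interval. Taking the lower of the 2 percentiles, the first was the yolk-sac-only region at 149889601 to 149891002, which lies 64.7 kb downstream of the Spsb1 start and beyond its 3′ end. It stood at percentiles 82.6 and 86.4. The next, at 149867751 to 149868702 and 86.8 kb downstream, was also yolk-sac-only and stood at 79.2 and 79.8. Then came 2 regions called in all 4 libraries, the one in the H6pd intron (82.9 and 75.5 in yolk sac, 88.03 and 87.4 in liver) and the Tmem201 start site (95.2 and 73.1 in yolk sac, 44.2 and 46.4 in liver). The fifth was yolk-sac-only and overlapped an exon of H6pd, at 149981851 to 149982852 and 27.3 kb upstream of the Spsb1 start. It stood at 98.9 and 69.6.

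At the edges of the interval peaks went on. The last peak before it ended at 149699002 in both liver lists, at 149699102 in yolk sac 1 and at 149699052 in yolk sac 2, and the first inside was the Pik3cd start-site peak. The first peak after it, in H6pd, ran from 149999601 to 150003702 in yolk sac 1 and from 149999851 to 150003552 in yolk sac 2, across the boundary. With peaks placed by any overlap the gap was 30.5 peaks.

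The densest yolk sac peaks lie beyond the 3′ end of Spsb1, and genes were also ordered by the peaks around their start. In the 100 kb centred on its 5′-most start, the lists held 4 and 3 liver and 10 and 11 yolk sac peaks. The gap of 7 ranked 469 of 21938 protein-coding genes, in a tie of 125. The 5 genes with the widest such gap, outside the interval and no 2 within 100 kb, were Vdr, Lpar3, Col4a1, Hoxc10 and Slc30a2. Around Vdr, the vitamin D receptor gene on chromosome 15, there were 1 and 1 liver and 18 and 16 yolk sac peaks. Around Lpar3, a lysophosphatidic acid receptor gene on chromosome 3, there were 0 and 0 against 17 and 13, with median percentiles of 14.9 and 33.04. The windows of Col4a1, a basement membrane collagen gene on chromosome 8, Hoxc10, a homeobox gene on chromosome 15, and Slc30a2, a zinc transporter gene on chromosome 4, each had a gap of 14, a value held by 6 genes and taken in alphabetical order. Promoter peaks at Vdr and Col4a1 were present in all 4 libraries, as at Spsb1, and those at Lpar3, Hoxc10 and Slc30a2 in the yolk sac libraries alone. These 5 genes were taken for the widest gap in peak count over 4 libraries, not for a gap near the 7 of Spsb1. No difference between these loci was tested.

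The family and the ligase that Spsb1 belongs to were called in both tissues. In each of the 4 libraries a peak was found at the promoters of Spsb1, Spsb2, Spsb3 and Spsb4, and of Cul5, Rnf7, Elob and Eloc, which encode the ligase scaffold, its RING protein and the 2 elongins. Spsb2 was close to Spsb1 in rank, at percentiles 95.2 and 90.9 in liver and 60.7 and 79.6 in yolk sac. In peaks within 100 kb centred on the start, Spsb2 had 7 and 8 in liver and 8 and 8 in yolk sac, where Spsb1 had 4 and 3 against 10 and 11. Spsb3 had 4 and 7 against 8 and 6, and Spsb4 had 1 and 2 against 6 and 5. The tissues did not overlap at Spsb1 or Spsb4, where yolk sac was higher. The same held in 55.3% of the fixed 100 kb windows with a peak. Those windows are not centred on gene starts, so the share is only a rough guide.

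Among the substrates, Tgfbr2, the TGF-beta type II receptor, and Pawr had a promoter peak in all 4 libraries. Nos2 on chromosome 11 had one in each yolk sac library, at percentiles 87.2 and 52.4, and none in liver. Of 8 further genes of TGF-beta signalling, Tgfb1, Tgfb2, Tgfbr1, Smad2, Smad3, Smad4 and Smad7 were called in all 4 libraries, and the ligand gene Tgfb3 on chromosome 12 in the yolk sac alone, at percentiles 63.5 and 68.1. In all, 17 of the 19 genes were called in all 4 libraries, 2 in yolk sac only and none in liver only. Among all 21951 protein-coding genes the shares were 53.8%, 5.25% and 1.01%. Around Smad7, an inhibitor of the pathway, the 100 kb held 3 and 5 liver and 17 and 16 yolk sac peaks. Among the substrate and TGF-beta signalling genes listed this was the widest excess. It was smaller at the others, for example 2 and 2 against 3 and 4 at Smad4. At Tgfbr1 alone the tissues overlapped (1 and 3 against 4 and 2). Of fixed 100 kb windows, 55.3% had more peaks in both yolk sac lists than in either liver list.

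The tissue labels were checked on promoter peaks at marker genes. Of all protein-coding promoters, 56.1% and 57.9% were called in liver 1 and 2 and 63.8% and 62.4% in yolk sac 1 and 2, so calls were more frequent in yolk sac over all genes too. The 7 erythroid genes Gata1, Klf1, Alas2, Hbb-bt, Slc4a1, Epb42 and Ermap had one in each liver library and in no yolk sac library. Of 7 yolk sac endoderm genes, the yolk sac lists had 7 and 7 and the liver lists 5 and 3, with Amn and Cubn, the receptor pair of the absorptive endoderm, in yolk sac only. Of 7 hepatocyte genes the liver lists had 6 and 5 and the yolk sac lists 5 and 5. Of 7 mesenchymal genes 7 and 7 were called in yolk sac and 4 and 6 in liver. Of 5 endothelial genes 5 and 5 were called against 4 and 5, where liver 2 equalled the yolk sac libraries, and of 5 macrophage genes 5 and 4 against 3 and 3. The part of these cell types in the peaks around Spsb1 was not tested.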

How the data were processed

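Each of the 4 files is the authors' deposited list of dREG peaks of 1 library, with positions and a score per peak that has no unit and was not scaled between libraries. Per the submitters' processing notes Bowtie2 and bedtools were used on mm10; versions, roles and filters are not given in the sources used here. mm10 is GRCm38, the build of the GENCODE M21 annotation used for genes and start sites. The lists hold no read counts, so depth is unknown. With scipy 1.17.1, pandas 2.3.3 and numpy 2.4.6 under Python 3.11.15, overlapping peaks (1 bp or more) were merged into regions, start sites were given 500 bp either side, and peaks were counted in windows by midpoint. The functions were tested on simulated lists. The interval, the gene lists and the alternatives were chosen with earlier results of these data known. Genes named are Spsb1, its coding neighbours, the listed family, ligase, substrate and marker genes and the 5 with the widest gap. Regions named are the 5 with the highest lower yolk sac percentile, those at Spsb1 starts, and others chosen after their values were seen. Positions are 1-based. Base composition of distal regions was planned but not analysed here. One marker gene of the erythroid list is not reported here.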

Additional observations from a re-analysis of the deposited data

How the results depend on the processing

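A peak or region count or a rank was taken as changed when it moved by more than 1.5 times, a share when it left its Wilson interval, the median percentile when it moved by more than the SD of the 2 yolk sac libraries, and a promoter call when it changed at all. Of 54 recomputed values 40 did not change by these rules, but some of these could not have changed. Leaving out a liver library cannot move a yolk sac percentile. Leaving out a yolk sac library cannot move the mean of the 2 median percentiles past the SD limit. With only the higher-scoring 50% of a list kept, the interval held 4 and 3 liver and 20 and 16 yolk sac peaks, a gap of between 14 and 15, 11 regions were yolk-sac-only, and the leading window had a gap of 9 and rank 2. With an equal number of highest-scoring peaks per list these were 11.5 peaks, 11 regions and a gap of 9.5, and the rank stayed at 1. Both filters use fewer peaks. The leading window was picked anew in each run as the one of the interval with the widest gap. It ranked 3 when windows were moved by 50 kb, 2 (gap 11) with windows of 50 kb and 4 with windows of 200 kb. By yolk sac peaks alone it ranked 8, and by base pairs covered 10. The median percentile, 48.8 over all peaks, was 59.6 among distal peaks.

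Leaving out 1 library at a time gave 29 to 30 peaks for the gap in the interval, 24 to 29 yolk-sac-only regions, a gap of 18 and rank 1 in the leading window, and a median percentile of 45.6 to 52.04; a call then needs fewer libraries. The promoter call at Spsb1 was present in every library under each window and filter run. With the replicate number as a block the gaps were 29.5 and 18. With 1 library of each tissue per block these must equal the plain gaps, so they test nothing, though they count among the unchanged values. The labels give no pairing beyond the number. Depth is unknown, so a missing liver peak shows only that none was called at the authors' score limit.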
